A study of Mus musculus with 6 samples.

Results

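WT MEFs, the fibroblasts grown from mouse embryos, were sequenced before and after the addition of TNFα, and the interval described here is the one from 1.5 to 6 hr, when the first wave of induced mRNAs either declines or goes on. Every protein coding gene with a value above the level taken to stand for an RPKM of 1 was followed, which gave 6571 of 20275 gene symbols (25684 transcripts). Each gene was represented by its transcript with the highest mean over the 8 columns of the table. The 6 hr library was compared with the 1.5 hr library, and the untreated and 24 hr libraries were set beside them. The cells were primary MEFs of the strain C57BL/6x 129 without an engineered allele, taken from littermate embryos of 13.5 days and passaged 4 times. All treated cultures received 20 ng/ml of TNFα, and the untreated culture received none. Poly(A) RNA was sequenced as paired-end directional libraries, 1 for each of the 4 times. Such primary cultures are a mixture of embryonic cells and not a clone.

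TNFα binds its receptor on fibroblasts and sets off a kinase cascade that frees NF-κB from its IκB inhibitors, so that NF-κB enters the nucleus and switches on genes of inflammation. Among its first targets are the genes of its own brakes. Nfkbia encodes IκBα, which pulls NF-κB back out of the nucleus, and Tnfaip3 encodes A20, a ubiquitin-editing enzyme that damps signalling at the receptor. How long an induced mRNA lasts also depends on its stability, and many cytokine mRNAs carry AU-rich elements in the 3′ UTR that mark them for decay.

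With 1 library per time, no difference has a replicate check and no test was made. The table gives 2 columns, R1 and R2, for each library. The sources used here do not say which reads each column holds, so their mean was the value of a library and their spread describes only how closely the columns agree. As deposited, the median log2 ratio of 6 hr to 1.5 hr over the 6571 genes was -1.33, so that 4235 genes would count as at least 2-fold lower at 6 hr without centring. Each ratio was therefore centred on this median, and a value of 0 means that a gene moved like the median gene. Levels are given as scaled RPKM, for which the deposited values were brought to the 1.5 hr library by a factor of 1.37 for the untreated library, 2.51 at 6 hr and 1.26 at 24 hr. Judged from the spacing of low values, a transcript of median length at the level of the filter held between 204 and 284 reads in a column. The 2 columns gave ratios with a median difference of 0.07 on the log2 scale, and for 48 genes they were more than 2-fold apart. A change at least 2-fold on the centred scale was called a rise or a fall. All ratios with the 1.5 hr library share that library, so a value that is high in it alone raises the first ratio and lowers the second. Of 15 fibroblast markers, 13 were above the level. The summed levels of all 15 were 1606, 1298, 1434 and 998.5 scaled RPKM at 0, 1.5, 6 and 24 hr. Col1a1 alone made up much of this sum and carried its drop at 1.5 hr, so the sum does not stand for the other markers. In these bulk cultures, fewer cells of a type and less RNA per cell cannot be told apart.

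Sequences of 2 kinds are shown for genes with different fates, namely promoters with the κB consensus, the site that NF-κB binds, and AU-rich windows of 3′ UTRs. The promoters run from 250 bases before to 50 bases after the annotated start and come from RefSeq on GRCm38.p6, a later build than that of the libraries. Capitals mark matches to the κB consensus on either strand, and the share of all 32851 promoters of this length with a match was 8.46%. Nfkbia (chr12:55492598-55492897, minus strand) and Cxcl1 (chr5:90890995-90891294, plus strand) were induced and held at 6 hr. Tnfaip3 (chr10:19015361-19015660, minus strand) and Cxcl10 (chr5:92348840-92349139, minus strand) were induced and then fell.
Nfkbia: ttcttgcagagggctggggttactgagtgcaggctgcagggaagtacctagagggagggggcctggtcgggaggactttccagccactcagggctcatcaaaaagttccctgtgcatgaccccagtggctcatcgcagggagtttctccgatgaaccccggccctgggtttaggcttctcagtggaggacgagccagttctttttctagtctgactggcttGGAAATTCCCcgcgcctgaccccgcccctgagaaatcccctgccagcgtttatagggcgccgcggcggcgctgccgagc
Cxcl1: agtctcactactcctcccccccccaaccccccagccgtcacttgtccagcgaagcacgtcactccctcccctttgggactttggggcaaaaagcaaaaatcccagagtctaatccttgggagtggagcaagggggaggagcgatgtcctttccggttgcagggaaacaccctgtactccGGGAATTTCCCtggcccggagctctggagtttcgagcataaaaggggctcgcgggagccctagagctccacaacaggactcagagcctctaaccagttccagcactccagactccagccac
Tnfaip3: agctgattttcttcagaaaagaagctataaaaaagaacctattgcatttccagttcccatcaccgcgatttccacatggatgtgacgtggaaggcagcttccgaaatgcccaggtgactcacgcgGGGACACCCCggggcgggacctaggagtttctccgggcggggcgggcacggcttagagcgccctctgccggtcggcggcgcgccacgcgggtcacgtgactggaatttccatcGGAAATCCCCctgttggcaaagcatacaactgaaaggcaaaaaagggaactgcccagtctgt
Cxcl10: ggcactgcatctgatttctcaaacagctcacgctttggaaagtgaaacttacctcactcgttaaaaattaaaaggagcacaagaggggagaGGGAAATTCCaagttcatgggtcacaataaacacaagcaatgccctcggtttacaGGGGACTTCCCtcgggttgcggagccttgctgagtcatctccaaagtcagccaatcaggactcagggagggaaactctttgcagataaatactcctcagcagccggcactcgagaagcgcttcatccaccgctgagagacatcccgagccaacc
In these promoters, 19 bases lay between the match and the start of Nfkbia and 60 bases for Cxcl1. Tnfaip3 had matches 115 and 2 bases before the start, and Cxcl10 had them 149 and 93 bases before it. The stretch of capitals in Cxcl1 and the second one in Cxcl10 are 11 bases of overlapping matches, counted here as 1 each. These 4 promoters were shown because they hold a match, so its presence under both fates was set by the choice. Rgs16, which held, and Ccl12, which fell, had no match in their promoters.

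The AU-rich windows are stretches of 30 bases of exonic 3′ UTR on mm9, chosen as the window with the most ATTTA pentamers of each gene and printed in the sense direction. Capitals mark the letters ATTTA, which may overlap. Cxcl2 (chr5:91334353-91334382, plus strand) and Cxcl1 (chr5:91321628-91321657, plus strand) were held at 6 hr, while Il15ra (chr2:11655471-11655500, plus strand) and Tnfaip3 (chr10:18721560-18721589, minus strand) fell.
Cxcl2: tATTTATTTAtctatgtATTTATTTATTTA
Cxcl1: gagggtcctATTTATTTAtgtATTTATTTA
Il15ra: agtgtatATTTAcatatacATTTAtATTTA
Tnfaip3: tttATTTAttatgaacttccaagttATTTA
Over the whole 3′ UTR, Cxcl2 held 11 pentamers and Cxcl1 held 7, whereas Tnfaip3 held 5 and Il15ra 4. Of these 4 genes, which were picked with their values known, the 2 with the most pentamers did not fall.

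From 1.5 to 6 hr, 170 of the 6571 genes fell and 1132 rose. These were 2.59% and 17.2% of all genes, and with both columns past 2-fold they were 119 (1.81%) and 1052 (16.0%). The central part of the distribution was narrow, with quartiles at -0.41 and 0.65, but its upper side was longer, with a 1st percentile of -1.15 and a 99th percentile of 3.05. The balance depended on the centring: scaling to the sum of the libraries moved the median of all genes by -0.18 and gave 410 falls and 942 rises, and a median of ratios gave 262 and 1033. Around the line for a fall, 10 genes lay within 0.01 inside it, Mrpl53 being the last, and 8 genes, beginning with Ms4a7, lay within 0.01 outside it.

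GC content moved with both steps. When genes were put into 10 equal bins by the GC content of the transcript, the bin with the lowest content (34.4% to 44.4%) had a median log2 ratio of 0.92 at 1.5 hr against untreated and of -0.24 at 6 hr against 1.5 hr. In the bin with the highest content (59.1% to 71.7%) the medians were -1.03 and 0.86. The share of genes that rose from 1.5 to 6 hr went from 8.62% in the lowest bin to 44.8% in the highest. By contrast, the median ratio of 24 hr to 1.5 hr stayed between -0.08 and 0.09 in all 10 bins. Across the 6495 genes with a matched transcript, Spearman's rho with GC content was -0.565 for 1.5 hr against untreated, 0.389 for 6 hr against 1.5 hr and 0.16 for 24 hr against 1.5 hr, given as a description across genes of the same libraries. The part of GC content in the changes was not tested. Where ratios were centred within 20 bins of GC content, 311 of 6495 genes fell (4.79%) and 824 rose (12.7%), and such values are given beside the main ones as GC-centred.

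**Figure D1:**
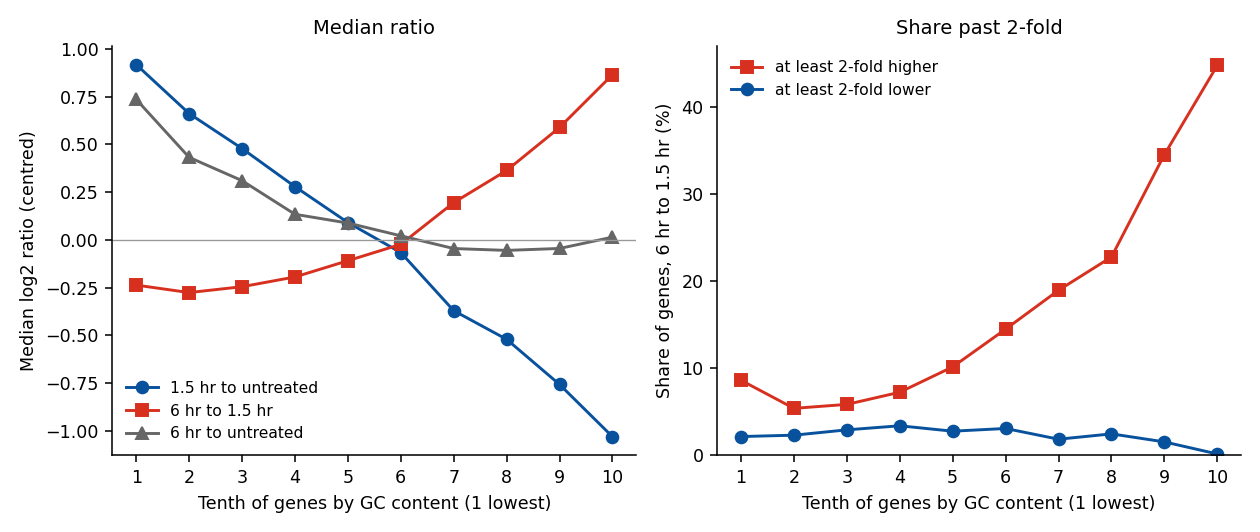
Genes in 10 equal bins by the GC content of the transcript (x axis, 1 lowest), with the median centred log2 ratio of 3 comparisons (left) and the share of genes at least 2-fold higher or lower at 6 hr than at 1.5 hr in percent (right). The median at 1.5 hr against untreated runs from 0.92 down to -1.03 while that at 6 hr against 1.5 hr runs from -0.24 up to 0.86, and the share that rose reaches 44.8% in the last bin.

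Most induced genes were below their 1.5 hr level at 6 hr by less than 2-fold. At 1.5 hr, 1030 genes were at least 2-fold above untreated (15.7% of all genes). At 6 hr, 86 of them were shut off, meaning at least 2-fold lower than at 1.5 hr, 937 were held within 2-fold and 7 kept rising by at least 2-fold. With both columns past 2-fold these numbers were 61, 878 and 5. The shut-off genes made up 8.35% of the induced genes, against 2.59% of all genes that fell, but both ratios share the 1.5 hr library. With GC centring, 694 genes were induced, of which 200 were shut off, 490 held and 4 kept rising, and 37 of the 86 genes were among the 200. Although few genes fell by 2-fold, 942 of the 1030 induced genes lay below 0 at 6 hr, with a median of -0.53. Relative to untreated, 419 of the 1030 induced genes (40.7%) and 392 of the 937 held genes were still at least 2-fold up at 6 hr.

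**Figure D2:**
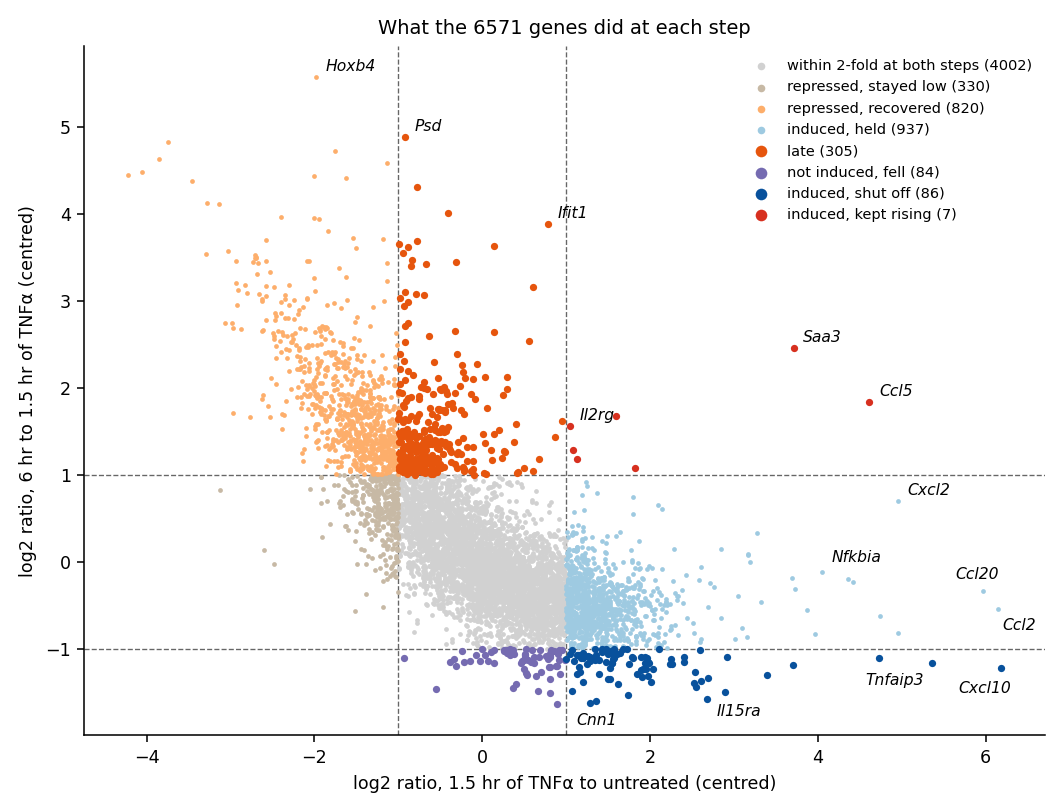
Each point is a gene, placed by its centred log2 ratio of 1.5 hr to untreated (x axis) and of 6 hr to 1.5 hr (y axis), with dashed lines at 2-fold and the number of genes of each class in brackets. Of the induced genes at the right, 937 lie between the dashed lines, 86 below and 7 above, and the 820 repressed genes that recovered fill the upper left.

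The fate at 6 hr was also counted by the size of the induction at 1.5 hr. Of the 921 genes induced 2- to 4-fold, 64 were shut off (6.95%) and 312 (33.9%) were still at least 2-fold above untreated at 6 hr. Of the 81 genes induced 4- to 8-fold, 17 were shut off (21.0%) and 79 were still 2-fold above untreated. A gene induced at least 4-fold that was not shut off stays above 2-fold by these limits. Only the 17 could have dropped under it, so the 79 were largely set by the choice. All 28 genes induced at least 8-fold were still 2-fold above untreated at 6 hr, where 617 of all genes (9.39%) were. The deepest fall of any gene was a log2 ratio of -1.64, which cannot bring an 8-fold induction below 2-fold. That count was therefore set by the choice and is no result beside the share of all genes. Of these 28, 5 were shut off, 21 held and 2 kept rising, and 21 were still at least 8-fold above untreated at 6 hr and 15 at 24 hr. The untreated library is the base of both counts, so they share its values. Relative to untreated, the shut-off genes as a whole lay at a median of 1.59 at 1.5 hr and 0.53 at 6 hr, and 10 of the 86 had dropped below untreated.

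The 5 strongly induced genes that were shut off were Cxcl10, Tnfaip3, Ripk2, Ccl12 and AY074887. Cxcl10, a chemokine for T cells, was at 0.122 scaled RPKM in untreated cells and at 8.90, 3.82 and 1.85 after 1.5, 6 and 24 hr, a 2.33-fold fall from 1.5 to 6 hr (log2 ratio -1.22, R1 -1.26, R2 -1.17). Tnfaip3 went from 0.114 to 4.67, 2.08 and 2.19 (log2 ratio -1.17 at 6 hr, -1.17 in R1 and -1.16 in R2). Ripk2, a kinase that relays signals to NF-κB, went from 0.372 to 9.88, 4.59 and 2.69. All 3 stayed far above their untreated level at 6 hr and fell in both columns. Ccl12, a monocyte chemokine, fell from 7.38 to 3.23 (log2 ratio -1.19). With GC centring, the ratios were -0.99 for Cxcl10, -0.97 for Tnfaip3 and Ccl12 and -0.85 for Ripk2, just short of 2-fold. The fall of AY074887 was -0.26 in R1 and -1.51 in R2 and rests on 1 column.

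The deepest falls among induced genes in both columns were found in genes of many kinds. Il15ra, the receptor chain that presents interleukin 15, went from 0.776 scaled RPKM to 4.97, 1.67 and 2.22 (log2 ratio -1.57 in R1 and -1.58 in R2). Cnn1, the actin-binding protein calponin of smooth muscle, went from 11.7 to 29.9, 9.84 and 17.8 (-1.60 in both columns). Il15ra kept 1.11 of its log2 rise over untreated at 6 hr, whereas Cnn1 was below its untreated level. The gap junction gene Gjb2 fell by a log2 ratio of -1.37 from an induced level of 3.89. Cks2, which binds the cell cycle kinases, fell from 8.15 to 2.89. Genes of the mitochondrion were among them too: Timm8b, an import chaperone of the intermembrane space, fell from 14.5 to 5.02, Ndufa1, a subunit of complex I, from 33.5 to 12.7, and Acaa2, a thiolase of fatty acid oxidation, from 9.39 to 3.36. Others of the 12 deepest falls were 1110001J03Rik, Ttc9, Mrp63 and Sgce, with log2 ratios between -1.63 and -1.38. GC-centred, the ratios of the genes named here lay between -1.81 and -1.11.

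Some very abundant mRNAs, named after their values were seen, lay just past the line. Eef1a1, the elongation factor that brings aminoacyl-tRNA to the ribosome, went from 192.5 scaled RPKM to 634.6 and 315.4 (log2 ratio -1.01). Tpt1 and Hspa8, an abundant growth-related protein and the constitutive HSP70 chaperone, had log2 ratios of -1.05 and -1.08. GC-centred, Eef1a1 was at -0.75 and both of the others at -0.96. Both members of some near-identical pairs were counted, as for Lyz1 and Lyz2 and for Bcl2a1a and Bcl2a1d, and the way reads shared between copies were counted is not given in the sources used here.

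**Figure D3:**
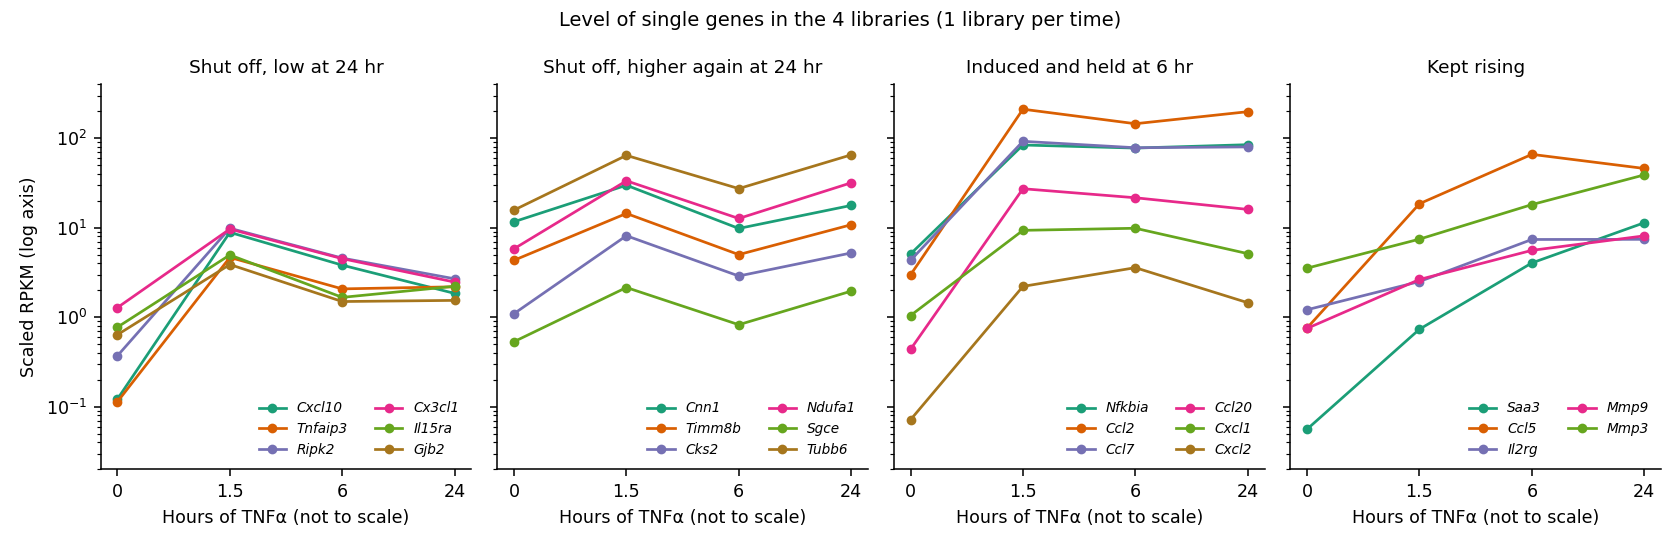
Scaled RPKM on a log axis in the 4 libraries, joined by lines, for genes that were shut off and stayed at least 2-fold below their 1.5 hr level at 24 hr, genes that were shut off and were higher again at 24 hr, genes that were held and genes that kept rising. The lines of Cxcl10, Ripk2 and Cx3cl1 go on down to 24 hr (1.85, 2.69 and 2.47), those of Ndufa1 and Tubb6 return to 31.8 and 65.4, and those of Saa3 and Mmp3 climb at every step.

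The 24 hr library separated the shut-off genes into those that stayed low and those that came back. Of the 86 genes, 9 were at least 2-fold lower at 24 hr than at 1.5 hr, against 71 of all genes (1.08%). The 86 were chosen by a high value at 1.5 hr, the base of this ratio. Such a drop was not particular to them: it was seen in 14 of the 937 held genes, among them Icam1, Irf1 and Tnfaip2. It was also seen in 10 of the 28 genes induced at least 8-fold. The 9 shut-off genes were Il15ra, Gjb2, Bcl2a1a, Cxcl10, Tnfaip3, Ripk2, Katna1, Cx3cl1 and Cthrc1. Cx3cl1, the membrane-bound chemokine fractalkine, went from 1.28 scaled RPKM to 9.68, 4.52 and 2.47. Bcl2a1a encodes an anti-apoptotic protein of the BCL2 family, and its level was 3.25, 1.35 and 1.57 at 1.5, 6 and 24 hr. In contrast, 54 of the 86 genes were within 1.5-fold of their 1.5 hr level at 24 hr, and 16 were at least 2-fold higher at 24 hr than at 6 hr. Ndufa1 was at 33.5, 12.7 and 31.8 at 1.5, 6 and 24 hr, and Tubb6, a β-tubulin, at 64.5, 27.4 and 65.4. For the whole group the median log2 ratio of 24 hr to 6 hr was 0.81, against -0.03 for all genes. The shares of all genes that match the 54 and the 16 were not counted, and the 86 were chosen by a low value at 6 hr. Genes that returned were low in the 6 hr library alone among the treated ones, so a fall in the cells and a lower value of that 1 library cannot be told apart for them. In the other direction, 43 of all genes (0.654%) were at least 2-fold higher at 24 hr than at 1.5 hr. None of the 86 was, which their choice by a high value at 1.5 hr favours.

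**Figure D4:**
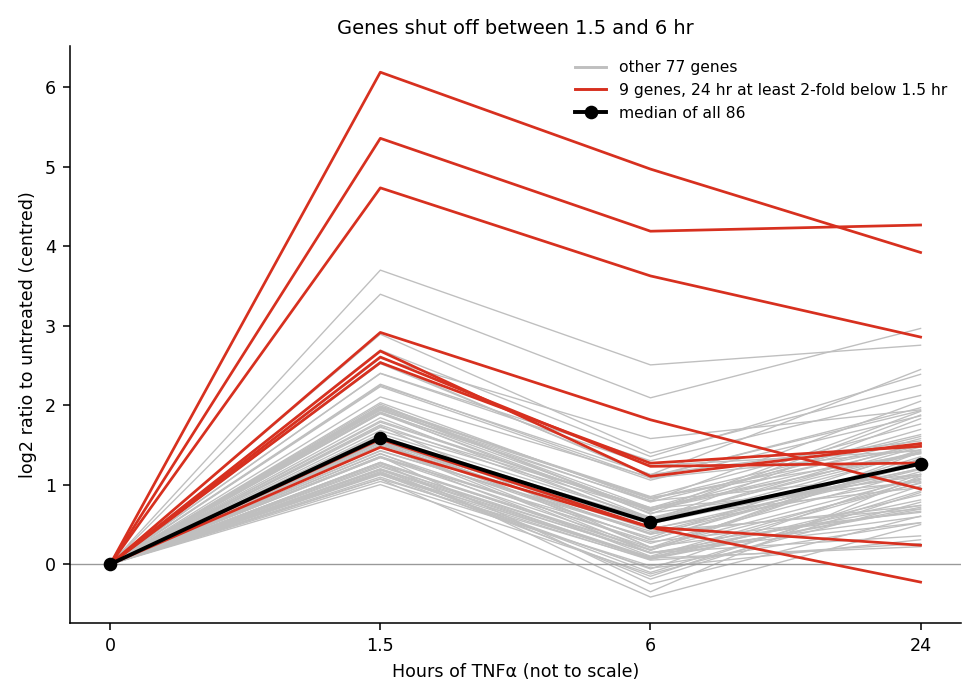
The centred log2 ratio to untreated of the 86 shut-off genes (y axis) at each time of TNFα (x axis). The black line is their median, which goes to 1.59 at 1.5 hr, 0.53 at 6 hr and 1.26 at 24 hr, and the red lines are the 9 genes that were at 24 hr at least 2-fold below their 1.5 hr level.

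Several chemokines and the feedback inhibitor Nfkbia were among the genes that held. Nfkbia went from 5.11 scaled RPKM in untreated cells to 84.2, 77.9 and 84.9. Its log2 ratio of 6 hr to 1.5 hr was -0.11 (-0.01 in R1 and -0.21 in R2). The monocyte chemokine Ccl2 went from 2.99 to 211.7, 145.7 and 198.5, and Ccl7 from 4.33 to 92.6, 78.5 and 80.2. All 3 mRNAs were near their 1.5 hr level in both later libraries, with no value at 6 hr or 24 hr close to that of untreated cells. Ccl20, which attracts Th17 and dendritic cells, went from 0.439 to 27.3, 21.7 and 16.1, Fas, the death receptor, from 0.256 to 3.75, 2.55 and 1.55, and Rgs16, a brake on G protein signals, from 1.14 to 12.1 at 6 hr (log2 ratio to 1.5 hr -0.31) and 13.3 at 24 hr. Gbp2, a guanylate-binding protein of host defence, was at 5.45, 4.73 and 4.35 after its rise from 0.266. The 567 held genes within 1.5-fold of their 1.5 hr level made up 60.5% of those that held.

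The genes that kept rising were few. Saa3, an acute-phase protein of inflamed fibroblasts and macrophages, went from 0.0562 scaled RPKM to 0.736, 4.05 and 11.4. The chemokine Ccl5 was at 0.76, 18.6, 66.2 and 46.1, so that its peak fell at 6 hr. The log2 ratios of 6 hr to 1.5 hr were 2.46 for Saa3 (2.48 in R1, 2.43 in R2) and 1.83 for Ccl5 (2.01 and 1.69). Il2rg, the γ chain shared by several interleukin receptors, was at 1.21, 2.51, 7.41 and 7.43. The matrix metalloproteinases Mmp9 and Mmp3 rose too, with log2 ratios of 1.08 and 1.28. The other 2 are uncertain: Mtrnr2l is related to a mitochondrial sequence and its columns were more than 2-fold apart, and H2-Q8 is 1 of several near-identical MHC genes. GC-centred values were 2.57 for Saa3, 1.78 for Ccl5, 1.80 for Il2rg, 1.51 for Mmp3 and 0.90 for Mmp9. The GC-centred first step, from untreated to 1.5 hr, was 0.56 for Il2rg and 0.51 for Mmp3, so that neither counted as induced and neither as kept rising with GC centring, and Mmp9 missed the second step. At 24 hr Saa3, Ccl5, Il2rg, Mmp3 and Mmp9 were all at least 2-fold above their 1.5 hr level. As deposited, without centring, Mmp3 and Mmp9 were slightly lower at 6 hr than at 1.5 hr.

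Within the NF-κB pathway, few listed genes changed by 2-fold. Among the NF-κB subunits, 4 of 5 genes were above the level and none changed by 2-fold. Nfkb1 had a log2 ratio of -0.53 and Nfkb2 of 0.77, while Relb, the partner of the non-canonical pathway, was at 8.24 scaled RPKM at 1.5 hr and 9.68 at 6 hr. Of 12 inhibitors and feedback genes above the level, 1 fell (Tnfaip3) and 1 rose, against 2.59% and 17.2% of all genes, and their median was 0.19. With GC centring 1 fell and 1 rose, but Tnfaip3 was at -0.97 and was not the one that fell. The gene that rose was Nfkbiz, a nuclear IκB protein, at 2.99 scaled RPKM at 1.5 hr and 6.60 at 6 hr. Nfkbie, which encodes IκBε, was at 0.688 in untreated cells and then at 6.19, 6.59 and 3.09. At 24 hr Nfkbie was lower than at 1.5 hr while Nfkbia was not. Of 16 genes of the TNF receptor complex and cell survival, none fell and 3 rose: the kinases Ikbke (1.49) and Ikbkb (1.09) and the adaptor Traf2 (1.43). With GC centring 3 rose and 2 fell, Tnfaip2 (-1.07) and Gadd45b (-1.08). Sod2, the mitochondrial superoxide dismutase, and Gadd45b, a stress sensor, had log2 ratios of -0.33 and -0.65. Tnfaip2 was at 35.2, 20.8 and 11.9 at 1.5, 6 and 24 hr.

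The chemokine lists held both directions, and their counts are read beside the 2.59% of all genes that fell and the 17.2% that rose. Of 8 CXC and CX3C chemokines above the level, Cxcl10, Cx3cl1 and Cxcl14 fell and none rose by 2-fold, with a list median of -0.19. With GC centring 2 fell, without Cxcl10, and Cxcl5 rose (1.14). Cxcl14, a chemokine of resting tissue, had a log2 ratio of 0.37 at 1.5 hr against untreated and went from 9.72 scaled RPKM at 1.5 hr to 3.56 at 6 hr. The neutrophil chemokines did not fall: Cxcl1 was at 9.37 and 9.89, Cxcl2 at 2.21 and 3.59 and Cxcl5 at 3.30 and 6.26. Of 8 CC chemokines, Ccl12 fell, Ccl5 rose and the median was 0.13, and with GC centring none fell and Ccl5 and Ccl8 rose. Ccl8 was at 2.21, 3.82 and 8.53 at 1.5, 6 and 24 hr. Vcam1 and Icam1, the adhesion molecules that hold leukocytes, were the only 2 of 9 listed above the level. Vcam1 was at 11.5 at 1.5 hr and 6.50 at 6 hr (log2 ratio -0.83) and Icam1 at 9.12 and 6.59 (-0.47), and Icam1 was at 3.20 at 24 hr. Among 5 interleukins and colony-stimulating factors, Clcf1 rose (1.23). Csf1, the macrophage growth factor, was at 37.6 at 1.5 hr and 59.0 at 6 hr, and Lif at 5.14 and 5.11. Il6 did not reach the level: it was at 0.186 at 1.5 hr and 0.288 at 6 hr and is not in the counts.

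Immediate-early genes, which are first to respond to most stimuli, showed no common decline in this interval. Of 21 above the level none fell and 2 rose, beside 2.59% and 17.2% of all genes, with a median of -0.01. Those 2 were Hes1 (1.87) and Nr4a1 (1.75), and both had been at least 2-fold below untreated at 1.5 hr. Junb, a subunit of AP-1, had a log2 ratio of -0.75 after a rise of 2.11, and Ier2 had a ratio of -0.82. Their GC-centred ratios were -1.74 and -1.81, and with GC centring 4 of the 21 fell, so the count depends on it. Egr1 was at 3.69 and 5.92, and Fos had a mean under the level. Of 7 factors of AU-rich mRNA decay above the level, 3 rose and none fell, beside 17.2% and 2.59% of all genes. Their median was 0.62, and all 3 values were the same with GC centring. Zfp36, which encodes tristetraprolin, a protein that binds AU-rich elements and brings mRNAs to decay, went from 3.88 scaled RPKM to 4.56, 10.4 and 3.91 (log2 ratio 1.19 in both columns). The others were Khsrp (1.57) and Tnrc6a (1.34), an RNA-binding decay factor and a partner of Argonaute. The summed level of all 12 listed decay factors was 48.0, 36.6, 66.2 and 36.0 scaled RPKM at 0, 1.5, 6 and 24 hr. This sum and Zfp36 were high in the 6 hr library alone. For them a rise in the cells and a higher value of that 1 library cannot be told apart.

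Genes of antigen presentation and interferon responses are read beside the 17.2% of all genes that rose and the 2.59% that fell. Of 14 genes of MHC class I presentation above the level, 5 rose and none fell, with a median of 0.21. Those 5 were Psmb10 (1.46) and Psmb8 (1.04), subunits of the immunoproteasome, Psme1 (1.45), an activator of the proteasome, and Tap2 (1.01) and Tapbp (1.29), which load peptides. With GC centring 2 of the 14 rose. B2m, the light chain of MHC class I, was at 147.6, 101.8 and 225.1 scaled RPKM at 1.5, 6 and 24 hr. Of 23 interferon-stimulated genes, 4 rose and 1 fell, with a median of -0.07, and with GC centring 3 rose and 1 fell. Ifit1 had the largest ratio, from 4.55 to 67.0, but its columns gave 2.08 and 4.68, and it was at 8.76 at 24 hr. The others were Psmb8, Ifi35 (1.64) and Stat2 (1.33), and Ifi27l2a fell (-1.12). Irf1, an early transcription factor of this response, was at 15.1, 11.5 and 4.61 over the same times, and Irf3 rose (1.14, or 0.72 GC-centred).

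Among secreted proteases and acute-phase genes were several that went on rising to 24 hr. Of 17 matrix proteases and inhibitors above the level, 3 rose and none fell, beside 17.2% and 2.59% of all genes, and the median was 0.36. Mmp3, stromelysin, was at 3.54 scaled RPKM in untreated cells, then at 7.47, 18.2 and 39.0. Mmp9, a gelatinase, was at 0.752, 2.65, 5.60 and 8.13. The third was Mmp23 (1.23), which had been repressed at 1.5 hr and whose GC-centred ratio was 0.53, and with GC centring 1 of the 17 rose. Mmp10 was at 4.56, 5.76 and 13.2 at 1.5, 6 and 24 hr and Mmp13 at 3.97, 6.03 and 9.63. By 24 hr, 4 of the 17 were at least 2-fold above their 1.5 hr level, namely Mmp3, Mmp9, Mmp10 and Mmp13, beside 0.654% of all genes. Of 6 complement and acute-phase genes, Saa3 and C1s (1.73) rose. C3, the central complement protein, had a mean under the level, with 0.0945, 1.00 and 1.02 at 1.5, 6 and 24 hr, and is not in the counts.

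**Figure D5:**
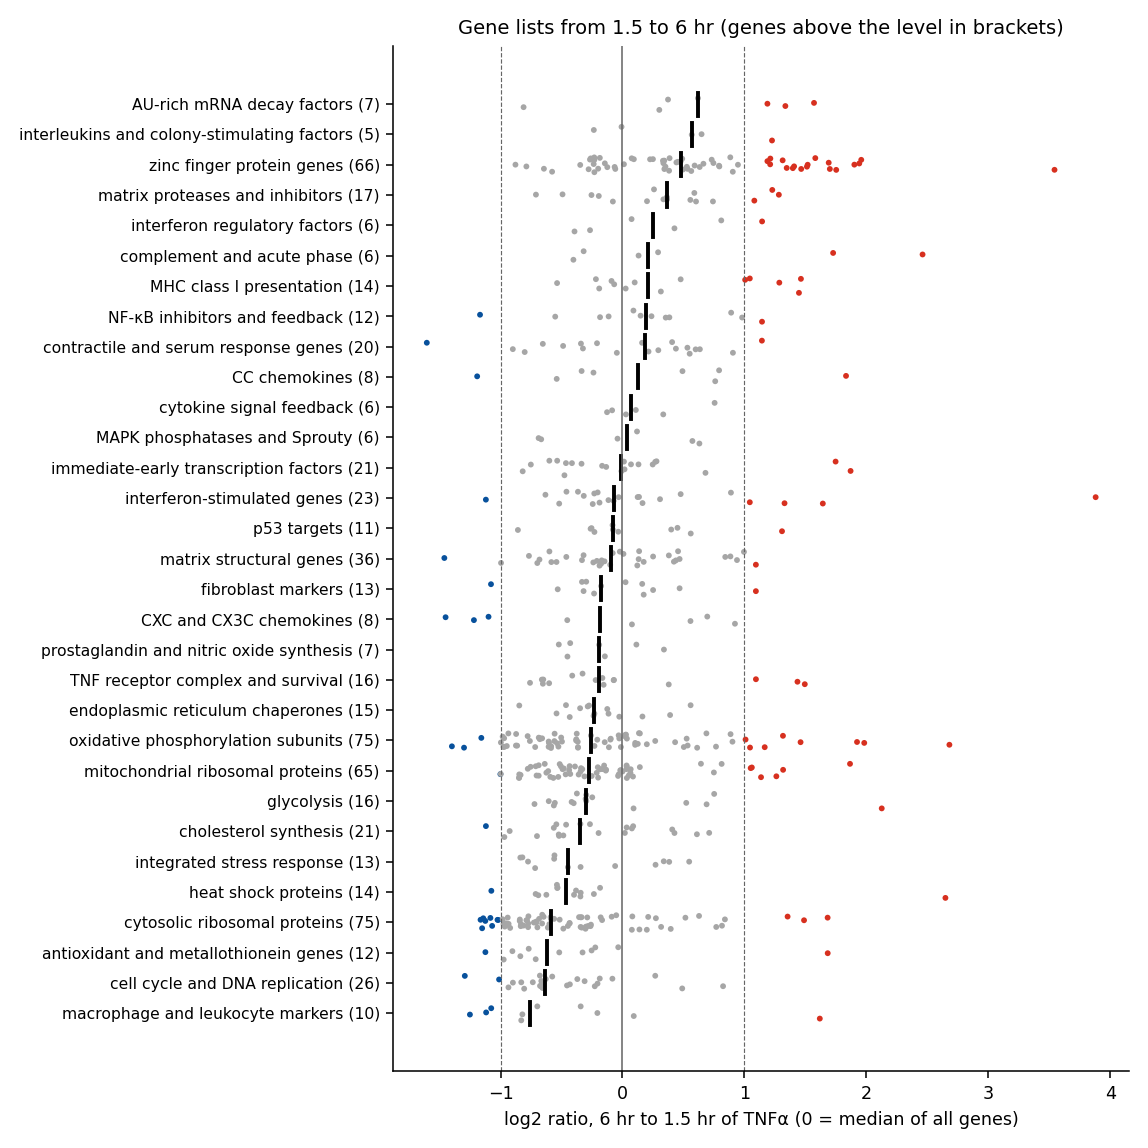
Gene lists of at least 5 genes above the level, ordered by their median (black bars), with each gene placed by its centred log2 ratio of 6 hr to 1.5 hr (x axis). Red points are at least 2-fold higher and blue points at least 2-fold lower. The medians run from -0.76 for macrophage and leukocyte markers to 0.62 for factors of AU-rich mRNA decay. Of 75 cytosolic ribosomal protein genes 8 are blue, beside 2.59% of all genes that were at least 2-fold lower.

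Most of the genes that rose from 1.5 to 6 hr were returning from a low value at 1.5 hr. At 1.5 hr, 1150 genes (17.5%) were at least 2-fold below untreated, and 820 of these rose by at least 2-fold to 6 hr, 330 did not and none fell further. Of the 820, 649 were within 1.5-fold of untreated at 6 hr, and 702 were at least 2-fold lower again at 24 hr. Those 702 were high in the 6 hr library alone among the treated ones. For them a return in the cells and a higher value of that 1 library cannot be told apart. The share of all genes that were 2-fold lower at 24 hr than at 6 hr was not counted. The median log2 ratio of 24 hr to 6 hr was -1.50 for the 820 and -0.03 for all genes. The 820 were chosen by a rise to 6 hr, the base of that ratio. Against 1.5 hr instead, 1.08% of all genes were at least 2-fold lower and 0.654% at least 2-fold higher at 24 hr. The median GC content of the 820 was 57.7%, against 52.8% for all genes, and with GC centring 458 of 684 repressed genes recovered. Col1a1, the main collagen of fibroblasts, went from 703.6 scaled RPKM to 277.8, 592.8 and 179.1, with a GC-centred ratio of 0.40. Eln, which encodes elastin, did not recover, at 10.5, 1.89, 1.86 and 0.341. Hoxb4, named after its value was seen, had the largest rise of all, from 0.822 at 1.5 hr to 39.0 at 6 hr and back to 1.94 at 24 hr.

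Another 305 genes were within 2-fold of untreated at 1.5 hr and rose to 6 hr, with a GC-centred count of 362. Of these late genes, 275 had been below untreated at 1.5 hr, where the centred median of all genes is 0. At 6 hr, 110 of them (36.1%) were at least 2-fold above untreated, against 9.39% of all genes. Their choice by a rise from 1.5 to 6 hr favours both counts. The largest rises in both columns were those of Psd (log2 ratio 4.88), Naa15 (4.31), 4930523C07Rik (4.01) and Ifit1 (3.88), followed by Flywch1, rp9, Ssbp3 and Magt1 (3.69 to 3.55). Psd, an exchange factor for ARF6, was at 1.27, 0.673, 19.8 and 0.784 scaled RPKM, and Naa15, a subunit of the N-terminal acetyltransferase, at 1.76, 1.03, 20.4 and 1.14. Ssbp3, a cofactor of LIM-domain transcription factors, was at 128.3 at 6 hr, from 19.4 in untreated cells. These genes were high in the 6 hr library alone. For them a rise in the cells and a higher value of that 1 library cannot be told apart. At 24 hr, 206 of the 305 were at least 2-fold lower than at 6 hr, a share that was not counted over all genes. The median log2 ratio of 24 hr to 6 hr was -1.20 for the 305 and -0.03 for all genes. The 305 were chosen by a rise to 6 hr, the base of that ratio. At 24 hr, 3 of them (Mettl1, C1s and Ccdc34) were at least 2-fold above their 1.5 hr level. In 8 of the 48 late genes that rose at least 4-fold, the columns were more than 2-fold apart, as for Kif3a (0.80 and 4.53) and Timm22 (-0.61 and 4.48), whose rises rest on 1 column. Hsp90aa1, the inducible HSP90 chaperone, rose from 30.5 to 191.1 and was at 40.0 at 24 hr. Hk2, the hexokinase of glycolysis, rose from 2.82 to 12.3 and was at 1.99.

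Another 84 genes fell after a change of less than 2-fold from untreated to 1.5 hr. The deepest in both columns were those of Tubb3, a neuronal β-tubulin (1.49 scaled RPKM in untreated cells, 2.76 at 1.5 hr, 0.889 at 6 hr), Chrac1 and Mpst. From untreated to 1.5 hr these 3 had gone up by log2 ratios of 0.89, 0.81 and 0.67, and GC-centred by 1.61, 0.92 and 1.46, so Tubb3 and Mpst counted as induced with GC centring. Fmod, the collagen-binding proteoglycan fibromodulin, went from 3.04 in untreated cells to 2.08, 0.755 and 0.351, and Anxa8 and Crabp2, an annexin and a carrier of retinoic acid, had log2 ratios of -1.40 and -1.35. Fmod and Anxa8 were lower still at 24 hr, whereas Tubb3 and Mpst were at 2.14 and 3.50. Of the 84 symbols, 17 were protocadherin γ genes, which share their last exons and so repeat the same reads. A transcript was matched for 63 of the 84, too few for a check of length or GC content, so that check is void here.

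Most housekeeping lists had medians below 0, and their counts are read beside the 2.59% of all genes that fell and the 17.2% that rose. Of 75 cytosolic ribosomal protein genes above the level, 8 fell and 3 rose, with a median of -0.59 (-0.47 GC-centred, with 9 falls and 2 rises). Rps14 fell by a log2 ratio of -1.15, whereas Rpl28 and Rps15 rose by 1.68 and 1.49 after a fall at 1.5 hr. Both of the latter were GC-rich, at 60.4% and 62.4%. Of 26 cell cycle and DNA replication genes, Mcm3 and Mcm5, subunits of the replicative helicase, fell and none rose, with a median of -0.64 (-0.41, with 3 falls). Of 75 subunits of oxidative phosphorylation, 3 fell and 8 rose, with a median of -0.26, and with GC centring 7 fell and 7 rose. Among 66 zinc finger protein genes, 18 rose and none fell, with a median of 0.48 (0.29) and a median GC content of 56.0%, and 10 rose with GC centring. The list's share of rises, 18 of 66, stood beside 17.2% of all genes. Medians were -0.47 for 14 heat shock proteins, -0.45 for 13 genes of the integrated stress response, -0.61 for 12 antioxidant and metallothionein genes, -0.30 for 16 glycolysis genes, -0.35 for 21 cholesterol synthesis genes, -0.24 for 15 endoplasmic reticulum chaperones and -0.28 for 65 mitochondrial ribosomal proteins. Each of these lists had at most 1 fall, and at most 1 rise except the last with 6. With GC centring there were 3 falls of heat shock proteins, 2 in the integrated stress response, and 3 falls and 3 rises of mitochondrial ribosomal proteins. Lists of cell structure lay near 0, at -0.09 for 36 matrix genes and 0.19 for 20 contractile genes, with 1 fall and 1 rise each (4 falls and 1 rise of matrix genes, and 1 fall of contractile genes, with GC centring). None of the 6 MAPK phosphatase and Sprouty genes, the 6 cytokine feedback genes and the 7 genes of prostaglandin and nitric oxide synthesis changed by 2-fold, but with GC centring 2 of the first list fell and 1 of the second rose. Ptgs2 (cyclooxygenase 2) had a ratio of -0.43. Of 11 p53 target genes, Bbc3 rose (1.31), whereas with GC centring none rose and 3 fell. Cdkn2a, which was among those 3, was at 41.5, 22.9 and 51.6 at 1.5, 6 and 24 hr.

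The shut-off genes had short transcripts. Their median length was 1583 bases, against 2250 for the held genes and 2655 for all genes, and their median 3′ UTR had 368 bases, against 872 and 871. Short transcripts were not particular to them. All 170 genes that fell had medians of 1456 and 346 bases, with a transcript matched for 147. Their median GC content was 50.1%, between 47.1% for held genes and 52.8% for all genes. At least 1 ATTTA was found in 64.3% of their 3′ UTRs, against 76.9% of held genes and 59.8% of all genes. The longer signal TATTTAT was found in 21 of 84 shut-off genes, 27.4% of held genes and 1418 of 6443 genes in all. Per kilobase of 3′ UTR there were 1.96 ATTTA in shut-off genes, 2.29 in held genes and 1.48 in all genes. The genes induced at least 8-fold had 3.02 per kilobase, and TATTTAT was found in 14 of 28 of them.

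Promoters were matched for 76.7% of shut-off genes and 79.6% of held genes, too few for a comparison of the κB consensus between them, so that check is void. Among those matched, it was found for 14 of 66 shut-off genes and 103 of 746 held genes, and for 687 of 5317 genes above the level (12.9%). It was found for 11 of the 21 genes induced at least 8-fold that had a promoter. These were 75% of the 28, so that comparison is void as well. A gene with several annotated starts has several windows, which raises such shares above that of single promoters. H3K4me3, the mark of active promoters, was profiled in untreated cells with 1 library. A peak lay within 1000 bases of the start of 81.0% of shut-off genes, 90.0% of held genes and 90.0% of all genes, and of 53.6% of the genes induced at least 8-fold. Induced genes were chosen by a ratio to untreated cells, where the peaks were also measured, so these shares are not independent of the choice. Some passed the filter through the treated libraries, as did Cxcl10 and Saa3, which were at 0.122 and 0.0562 scaled RPKM in untreated cells. Cxcl10, Ccl5 and Saa3 had no peak at the start before TNFα, while Nfkbia and Tnfaip3 had one.

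Markers of other cells moved as well, and the counts are read beside the 2.59% of all genes that fell and the 17.2% that rose. Of the 13 fibroblast markers above the level, 1 fell and 1 rose, with a median of -0.18, and none did with GC centring. Of 16 macrophage and leukocyte markers 10 were above the level, and 3 of them fell (Lyz1, Lyz2 and Laptm5) and 1 rose (Cd74), with a median of -0.76, and with GC centring 2 fell and 1 rose. The summed level of all 16 was 142.6, 307.6, 160.1 and 193.7 scaled RPKM in untreated cells and after 1.5, 6 and 24 hr, with Lyz2 alone at 36.1, 171.3, 79.0 and 105.7. Laptm5 was at 34.4, 32.7, 15.5 and 17.5 over the same times. C1qc, which is not in the list, also fell (-1.28) and was at 11.6, 16.7, 6.90 and 6.10. Ptprc, Itgam and Emr1, picked from the list after their values were seen, were at or below 0.865 scaled RPKM in every library but not at 0. Only 1 of 10 endothelial and 1 of 10 epithelial markers was above the level. The part of macrophages in the falls was not tested.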

How the data were processed

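RNA from 4 libraries of MEFs was measured, and untreated cells were also profiled for H3K4me3 against input. The authors mapped the RNA reads to mm9 with TopHat and deposited RPKM values per RefSeq transcript, in 2 columns per library and on a scale of their own. A deposited value of 85.6 was taken here to stand for 1 RPKM, and the levels given as scaled RPKM rest on that. It did not match the read counts judged from low values, so their absolute scale is uncertain. Reads for H3K4me3 were mapped with Bowtie, and the authors deposited 11157 MACS peaks with tag counts, a score from the p-value, a fold enrichment ratio, an FDR in percent and the tag density as a signal, of which only the positions were used here.

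From the RPKM values, the columns of a library were averaged, transcripts with NM_ identifiers were kept, and the transcript with the highest mean represented a gene. Genes with a mean above 85.6 were kept (6571). No pseudocount was added. Ratios were centred on their median, and 2-fold was the threshold for a change. The members and lists were chosen with earlier results of these data known. Columns were tied to times by the study's list of library names.

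Named genes were those with the 12 deepest falls after induction in both columns, up to 12 that kept rising, the 8 largest late rises, the 8 deepest falls without a 2-fold induction, the 6 most induced that were within 1.5-fold at 6 hr in both columns, the 2 lowest and 2 highest of each of 35 lists, and 20 fixed genes. These genes were named after their values were seen: Cxcl2, Ripk2, Bcl2a1a, Bcl2a1d, Katna1, Cthrc1, Cx3cl1, Ccl12, Nfkbie, Mmp10, Mmp3, Mmp13, H2-Q8, AY074887, Kif3a, Timm22, Hoxb4, Tubb6, Eef1a1, Tpt1, C3, Ifi27l2a, Lyz1, Mettl1, Ccdc34, C1qc, Laptm5, Ikbkb, Psmb8, Stat2, Tap2, Tapbp, Ms4a7, Ptprc, Itgam and Emr1. A gene that is also among those chosen by the rule counts under both. Some genes that the rule picks are not reported here.

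GC content, length and 3′ UTRs came from GENCODE transcripts on mm9, matched for 98.8% of genes, and promoters from RefSeq on GRCm38.p6. Scripts ran in Python 3.11.15 with numpy 2.4.6 and pandas 2.3.3 and were tested on simulated data. Alternatives were other scalings, single columns, GC bins, pseudocounts, other filters and other folds.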

Additional observations from a re-analysis of the deposited data

How the results depend on the processing

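No paired analysis was possible because each time had 1 library. The main counts were 170 genes that fell and 1132 that rose from 1.5 to 6 hr, 86 shut off, 7 that kept rising, 820 that recovered and 305 late. Of 96 recomputed counts, 57 stayed within 1.5 times the main one and 39 did not. A 1.5-fold threshold gave 953 falls, 1764 rises, 683 shut off, 28 that kept rising and 1408 recovered, and a 3-fold threshold gave 3, 555, 0, 3 and 282. Without centring there were 4235 falls, 187 rises, 1915 shut off, 4 that kept rising, 145 recovered and 38 late. GC bins gave 311 falls, 200 shut off, 4 that kept rising and 458 recovered. Scaling to the sum gave 410 falls and 248 shut off, and a median of ratios gave 262 falls. A mean above 5 RPKM left 50 falls, 424 rises, 26 shut off, 3 that kept rising, 283 recovered and 138 late, and no filter gave 747, 2948, 266, 55, 2076 and 733. A pseudocount of 1 RPKM gave 257 falls, 592 rises, 2 that kept rising and 384 recovered. The GC bins, the other scalings and the single columns left the number of late genes within 1.5 times the main count. Apart from thresholds, filters, pseudocounts and scalings, whose construction sets the count, the cause was not tested.

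Among the named genes with a ratio of at least 2-fold, 17 values changed direction. Without centring, 12 named genes with smaller ratios also changed sign, among them Cxcl1, Cxcl2, Cxcl5, Csf1, Egr1, Nfkb2, Nfkbie, Relb, Mmp10 and Mmp13. Without centring the log2 ratio was -0.020 for Bbc3, -0.10 for Clcf1 and Mmp23, -0.23 for Col1a1 and Ikbkb, -0.074 for Fos, -0.14 for H2-Q8 and Zfp36, -0.18 for Irf3 and Nfkbiz, -0.046 for Mmp3, -0.25 for Mmp9, -0.28 for Psmb8, -0.32 for Tap2 and -0.042 for Tapbp. Timm22 was at -0.61 in R1 alone, and Emr1 at 0.17 with a pseudocount of 1 RPKM. Depth limits genes near the level, where a transcript of median length held 204 to 284 reads per column.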

Other observations

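Noncoding transcripts lay outside the count of coding genes. Of 310 symbols with a noncoding transcript above the level, 15 (4.84%) were at least 2-fold lower at 6 hr than at 1.5 hr. Another 103 (33.2%) were at least 2-fold higher, and the median log2 ratio was 0.36. Of the coding genes, 2.59% fell and 17.2% rose. Some of these symbols, such as Bmp1 and Gnas, are also those of coding genes. Malat1, which rose, was at 686.7 scaled RPKM in untreated cells and at 170.2, 846.3 and 191.5 after 1.5, 6 and 24 hr. Gm13253, induced at 1.5 hr, was at 22.3 scaled RPKM in untreated cells and at 91.6, 26.5 and 62.3 after 1.5, 6 and 24 hr (log2 ratio of 6 hr to 1.5 hr -1.79, with -1.82 in R1 and -1.75 in R2). The lowest ratio was that of Gm5069, which was at 12.1, 0.244 and 10.7 over the same times, with -6.60 in R1 and -4.21 in R2. The columns of Gm6498 went in opposite directions (-10.47 and 7.78), so its mean ratio of -4.59 rests on 1 column. These genes were named after their values were seen.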
